A study of Canis lupus familiaris with 13 samples.

Results

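The transcripts described here are those of 32 genes chosen by name: 18 integrin subunits, 10 laminin chains, both nidogens, perlecan (HSPG2) and agrin (AGRN). They were read in canine soft tissue sarcomas, primary cancers that arise in connective tissues. Of the 32 genes, 31 had at least 1 probe set (a group of short probes that reads 1 transcript) under that gene symbol, and together they had 87 of the 42924 probe sets tested. LAMA2 was not analysed here. Primary tumours of 5 metastatic cases were compared with 8 non-metastatic ones, for which no metastasis was recorded for 1 year or longer. All were biopsies of untreated tumours, and the labels give neither the tumour subtype nor whether each tumour came from a separate dog, so each p-value reflects only how far these samples spread, which may be technical.

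Basement membranes are thin sheets of matrix that surround vessels, muscle fibres, nerves and epithelia. A laminin is a heterotrimer of an alpha, a beta and a gamma chain, and laminin networks are tied to collagen IV by nidogens and by the heparan sulfate proteoglycans perlecan and agrin. Integrins are heterodimers of an alpha and a beta subunit that bind laminins, collagens, fibronectin or RGD-containing matrix proteins and couple them to the actin cytoskeleton, which is why the family has long been studied in tumour cell invasion.

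Values are log2 intensities, differences are metastatic minus non-metastatic, and a gene's values come from its probe set with the highest mean over the 13 samples (the chosen one) unless another is named. Array medians lay between 6.71 and 6.94. The labels name no batches. Labelling batches were inferred here from the bacterial spike-in controls, and what they stand for is not known. Batch A held the 5 metastatic samples with non-metastatic replicates 5 to 8. No spike-in signal was seen in batch B, formed by non-metastatic replicates 1, 3 and 4. In batch C, which was non-metastatic replicate 2 alone, that signal was 3.90 higher at the 3′ than at the 5′ end. The group difference is therefore also given within batch A. The ACTB 3′ minus 5′ value, which grows as RNA degrades, was 1.40 to 2.87 in metastatic and 0.39 to 3.14 in non-metastatic samples (1.23 to 2.24 in those of batch A). Batch A and batch B samples of the non-metastatic group did not overlap for 8 of the 31 members, against 36.0% of all named genes. Control probe sets without target read up to 7.16, so a value not above 7.16 is not told apart from no signal. In bulk tissue, fewer cells that make a transcript and less transcript per cell cannot be told apart. Of the mesenchymal markers, VIM lay between 12.82 and 13.86 in metastatic and between 13.44 and 13.70 in non-metastatic samples. VIM does not stand for the whole list of 11, of which 3 passed as lower in metastatic tumours and 0 as higher (limma, adjusted p under 0.05). Of all named genes 3.70% passed as lower and 1.65% as higher. Within batch A 1 of the 11 passed as lower and 0 as higher.

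Of the 31 measured genes, 2 fell in metastatic tumours, 0 rose and 29 did not pass the test (limma, adjusted p under 0.05 over all probe sets). The share was near that of all 15115 named genes, of which 5.35% passed, 1.65% as higher and 3.70% as lower. The genes that fell were LAMB2, which encodes the laminin beta 2 chain, and NID2, which encodes nidogen 2. Both also passed within batch A, where 2.82% of named genes passed, 0.576% as higher and 2.24% as lower. The median difference of the 31 genes was 0.13, against 0.05 for all named genes, and 17 of the 31 were positive. By family the median difference was 0.25 for 12 integrin alpha subunits, 0.20 for 6 beta subunits, -0.12 for 9 laminin chains and -0.40 for the nidogens, perlecan and agrin together. Within batch A the median was 0.02 for the members and 0.03 for all named genes, and by family 0.25 for the alpha subunits, 0.08 for the beta subunits, -0.045 for the laminin chains and -0.42 for the rest. At an unadjusted p under 0.05 there were 9 of 31 genes, against 3616 of 15115 named genes, and within batch A 6 of 31, against 3055 of 15115. Without non-metastatic replicate 2, 4 of 31 members passed: LAMB2, NID2 and NID1 as lower and ITGA9 as higher. The count of all probe sets also grew in that fit, to 4478 of 42924 from 2104 over all samples. Of the members' 87 probe sets, 13 passed there.

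LAMB2 had the lowest adjusted p of the members. It read 8.45, 9.57, 9.50, 8.89 and 8.56 in metastatic replicates 1 to 5, against 10.46, 11.13, 11.05, 11.14, 10.61, 10.27, 10.03 and 11.23 in non-metastatic replicates 1 to 8. The groups did not overlap, with all metastatic values below the lowest non-metastatic one. LAMB2 was the 1 member of 31 with this separation, which 2.96% of all named genes showed in either direction. LAMB2 averaged 8.99 ± 0.52 in the metastatic group and 10.74 ± 0.46 in the non-metastatic group (SD, n = 5 and 8), and fell by 1.75 ± 0.26 (SE, limma adjusted p = 0.00323). Within batch A LAMB2 fell by 1.54 ± 0.31 (SE, adjusted p = 0.0376), and the non-metastatic mean was 10.54 in batch A and 10.88 in batch B. The call held without each of the 13 samples in turn (adjusted p 0.00238 to 0.0126), and within batch A it was lost without metastatic replicate 1, 4 or 5 or non-metastatic replicate 5, 6 or 8, in 6 of 9 such fits (differences from -1.71 to -1.31, adjusted p 0.0332 to 0.109).

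**Figure D1:**
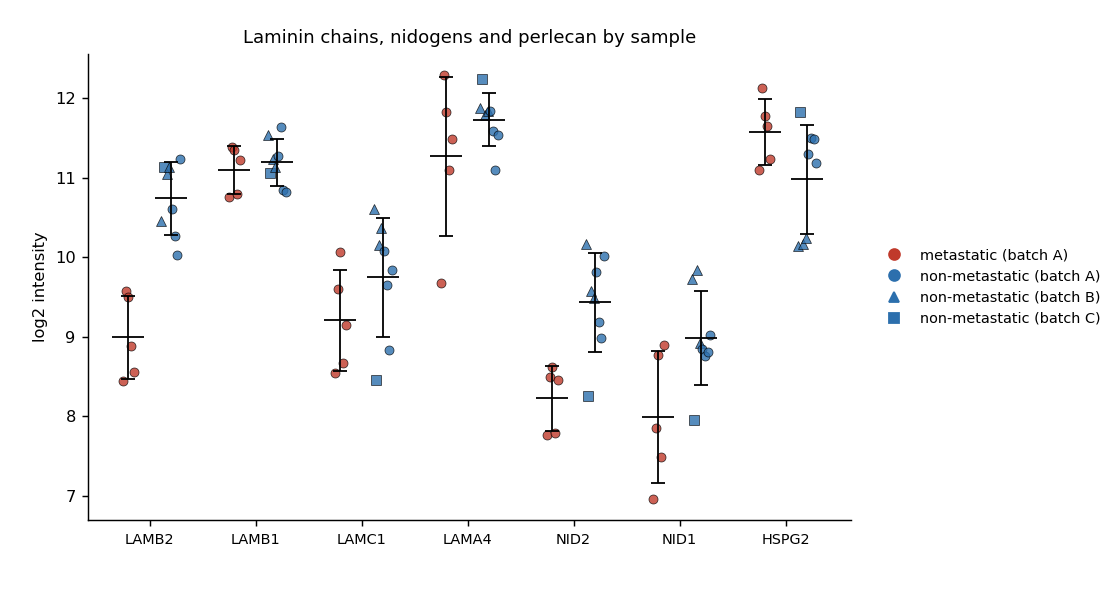
Log2 intensity of LAMB2, LAMB1, LAMC1, LAMA4, NID2, NID1 and HSPG2 at each gene's chosen probe set in every sample, metastatic in red and non-metastatic in blue, with symbols for the labelling batch and bars for mean ± SD. The 5 metastatic LAMB2 values end at 9.57, below the lowest non-metastatic value of 10.03, while the groups overlap for the other 6 genes.

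LAMB2 was read by 6 probe sets, all with lower means in metastatic tumours. The differences ran from -1.89 to -0.35, and 4 passed over all samples: the chosen probe set and those at -1.89, -1.55 and -1.27 (limma adjusted p = 0.00338, 0.00441 and 0.00918). For these 4 the groups did not overlap, as for 6 of the 87 member probe sets and 2.63% of all probe sets. Within batch A 3 of the 4 passed, and the fourth differed by -0.99 (limma adjusted p = 0.0675). The remaining 2 differed by -0.54 and -0.35 without passing. At the weakest of them the metastatic samples read 7.12 to 7.48, and within batch A the difference was 0.04.

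**Figure D2:**
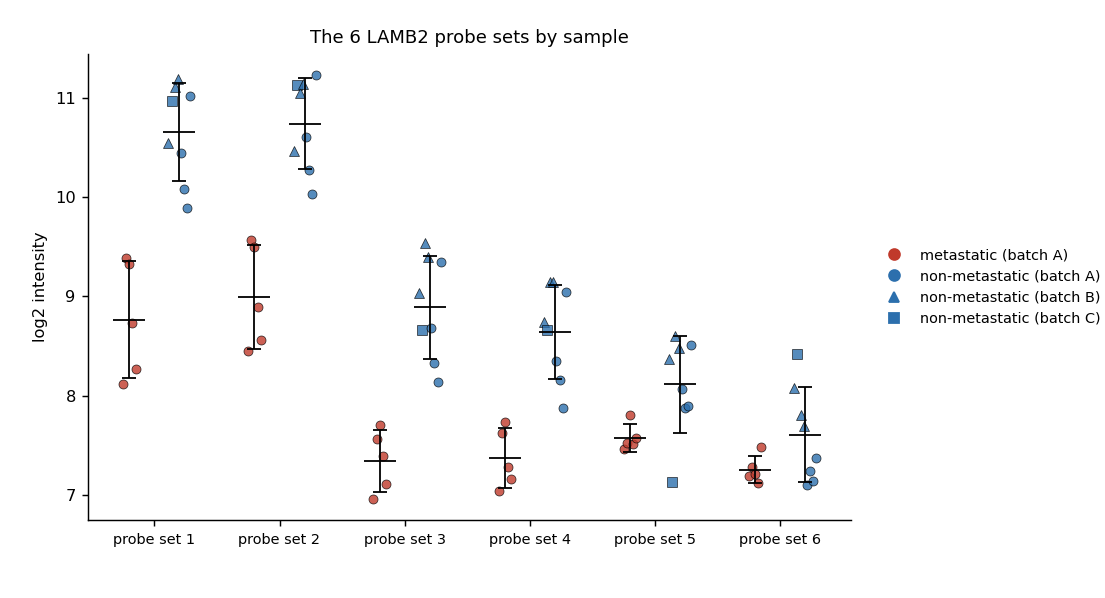
Log2 intensity of the 6 LAMB2 probe sets in every sample, ordered from the largest to the smallest difference, with metastatic samples in red, non-metastatic samples in blue, symbols for the labelling batch and bars for mean ± SD. In probe sets 1 to 4 all metastatic samples lie below all non-metastatic samples, with differences from -1.89 to -1.27, and in probe sets 5 and 6 the groups overlap.

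The chains that LAMB2 can assemble with, or that take its place, did not pass at their chosen probe sets. LAMB1, the laminin beta 1 chain, read 10.76, 11.38, 11.35, 10.79 and 11.22 in metastatic replicates 1 to 5, against 10.82 to 11.64 with a median of 11.19 in non-metastatic samples. Its difference was -0.09 ± 0.17 (SE, limma adjusted p = 0.756), and the groups overlapped. LAMC1, the gamma 1 chain found in most laminins, read 8.55, 9.60, 10.06, 8.67 and 9.15 in metastatic samples, against 8.46 to 10.61 with a median of 9.96 in non-metastatic samples (difference -0.54 ± 0.37, SE, adjusted p = 0.368). Within batch A the LAMC1 difference was -0.39 ± 0.36 (SE, limma adjusted p = 0.5715), and the non-metastatic mean was 9.60 in batch A and 10.38 in batch B. LAMA4, the alpha 4 chain of vessel and mesenchymal laminins, differed by -0.46 ± 0.34 (SE, adjusted p = 0.417). Metastatic replicate 1 had the lowest LAMA4 value of all samples, 9.67, and the other metastatic samples read 11.09 to 12.29.

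The difference in LAMB2 was set beside those of its partner chains by taking the log2 value of LAMB2 minus that of the other chain in each sample. These pairs were chosen after the values had been seen, and LAMB2 was the member with the lowest adjusted p. The adjustment over 4 pairs does not cover that choice. The p-values of these pairs are therefore descriptive and add no support to the LAMB2 difference. LAMB2 minus LAMB1 averaged -2.11 ± 0.37 in the metastatic group and -0.45 ± 0.62 in the non-metastatic group (SD, n = 5 and 8), a difference of -1.65 (two-sided exact permutation p = 0.00155 over 1287 splits, adjusted p = 0.00622 over 4 pairs). The metastatic samples, -2.66 to -1.81, did not overlap the non-metastatic ones, -1.37 to 0.41. The same difference was -1.20 for LAMB2 minus LAMC1 and -1.29 for LAMB2 minus LAMA4 (exact permutation p = 0.00932 and 0.00311, adjusted p = 0.0124 and 0.00622). Within batch A these values were -1.50, -1.15 and -1.30 (exact permutation p = 0.00794, 0.00794 and 0.0317, adjusted p = 0.0159, 0.0159 and 0.0423), where 0.00794 is the smallest p that 126 splits can give. With the mean of all probe sets of each gene, LAMB2 minus LAMC1 differed by -0.70 and did not pass (exact permutation p = 0.0746).

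NID2, the nidogen that is expressed more narrowly than nidogen 1, read 7.76, 8.49, 8.62, 7.79 and 8.46 in metastatic replicates 1 to 5, against 10.17, 8.26, 9.57, 9.49, 9.81, 9.18, 8.98 and 10.01 in non-metastatic replicates 1 to 8. Only non-metastatic replicate 2 (batch C) lay inside the metastatic range, and within batch A the groups did not overlap, as for 3 of the 31 members and 9.59% of all named genes. NID2 averaged 8.22 ± 0.41 in the metastatic group and 9.43 ± 0.62 in the non-metastatic group (SD, n = 5 and 8), and fell by 1.21 ± 0.29 (SE, limma adjusted p = 0.0311). Within batch A NID2 fell by 1.27 ± 0.27 (SE, adjusted p = 0.0440). The call was lost without metastatic replicate 1, 4 or 5 or non-metastatic replicate 1, 3, 4, 5 or 8 (differences from -1.27 to -1.09, limma adjusted p 0.0513 to 0.0836), and within batch A in all such fits but that without non-metastatic replicate 7 (8 of 9, adjusted p up to 0.137). The other NID2 probe set differed by -0.68 without passing (limma adjusted p = 0.109).

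NID1, the nidogen present in most basement membranes, read 6.96, 7.85, 8.77, 7.49 and 8.90 in metastatic samples, against 7.96 to 9.84 with a median of 8.88 in non-metastatic samples. The groups overlapped, and the difference of -0.99 ± 0.36 (SE) did not pass (limma adjusted p = 0.118). Within batch A it was -0.86 ± 0.38 (SE) and did not pass either (adjusted p = 0.240). Over all samples but non-metastatic replicate 2, NID1 passed. Its other probe set differed by 0.12. NID2 minus NID1 differed between the groups by -0.22 (exact permutation p = 0.418), so a difference between both nidogens in their change was not shown. With the mean of both probe sets of each gene it was -0.51 (exact permutation p = 0.0163).

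LAMA3, the alpha 3 chain of epithelial laminins, had probe sets that went different ways. At the probe set that passed, LAMA3 read 8.25, 8.41, 8.11, 8.22 and 8.18 in metastatic samples, against 7.25 to 8.01 with a median of 7.73 in non-metastatic samples. The groups did not overlap, and it rose by 0.52 ± 0.13 (SE, limma adjusted p = 0.0346), while within batch A the difference of 0.38 did not pass (adjusted p = 0.0796) and the call was lost in 9 of the 13 fits without 1 sample. The chosen LAMA3 probe set differed by 0.30 over all samples and 0.01 within batch A, and the third by -0.21. The LAMA3 probe sets therefore did not give the same call.

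The other laminin chains did not pass at any probe set over all samples. LAMA1 (0.34), LAMA5 (0.17), LAMB3 (-0.13) and LAMC3 (-0.12) had adjusted p of 0.308 to 0.726 in limma. LAMA5 is the alpha 5 chain of adult vessel and epithelial basement membranes, and LAMB3 is the beta chain of the epithelial laminin that anchors hemidesmosomes. For LAMC3 neither group mean was above 7.16. LAMB1 had 9 probe sets with differences from -0.68 to 0.86, and 5 of the 9 had the sign of the chosen one. At 1 of them LAMB1 read 6.69 to 7.27 in metastatic and 5.47 to 6.64 in non-metastatic samples, which did not overlap, and the difference of 0.72 did not pass (limma adjusted p = 0.0560). Both means of that probe set, 6.89 and 6.16, were not above 7.16. The LAMB1 probe set at -0.68 passed within batch A (-1.02, limma adjusted p = 0.0375), at readings of 1.73 to 2.82 in metastatic and 0.66 to 3.71 in non-metastatic samples, which are not told apart from no signal. Over all samples 6 of the members' 87 probe sets passed, against 4.90% of all probe sets. The 5 lower ones (background 3.34%) belonged to LAMB2 (4) and NID2 (1), and the 1 higher one (background 1.56%) to LAMA3. Within batch A 5 of 87 passed as lower, those of LAMB2 (3), NID2 (1) and LAMB1 (1), and 0 as higher, against 2.78% of all probe sets, 2.20% as lower and 0.578% as higher, and the groups did not overlap for 11 of 87, against 9.33%.

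Neither perlecan nor agrin passed. HSPG2 read 11.10, 12.13, 11.77, 11.65 and 11.23 in metastatic samples, against 10.14 to 11.83 with a median of 11.25 in non-metastatic samples, and differed by 0.59 ± 0.31 (SE, limma adjusted p = 0.260). Batch B alone held the low non-metastatic readings: the non-metastatic mean was 11.37 in batch A and 10.18 in batch B, and within batch A the difference was 0.21 ± 0.21 (SE, adjusted p = 0.607). AGRN, which also organises neuromuscular synapses, differed by 0.20 ± 0.18 (SE, limma adjusted p = 0.503) and by 0.02 within batch A.

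No integrin subunit passed, at 0 of 18 genes over all samples and 0 of 18 within batch A by limma, with 6 of 18 at an unadjusted p under 0.05 over all samples and 3 of 18 within batch A. Of all named genes, 3616 of 15115 did so over all samples and 3055 of 15115 within batch A. ITGB1, the beta 1 subunit shared by most matrix-binding integrins, read 10.95, 10.77, 11.32, 11.39 and 10.15 in metastatic samples, against 9.35 to 11.10 with a median of 10.95 in non-metastatic samples. The difference was 0.21 ± 0.29 (SE, limma adjusted p = 0.670) over all samples and -0.0065 ± 0.25 (SE) within batch A. Non-metastatic replicate 2 was the lowest, and all other non-metastatic samples lay inside the metastatic range.

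ITGAV, the alpha V subunit that binds RGD ligands such as vitronectin and latent TGF-beta, read 12.59, 12.13, 12.29, 12.28 and 11.72 in metastatic samples, against 11.39, 11.83, 11.45, 11.60, 11.97, 12.12, 11.46 and 11.80 in non-metastatic replicates 1 to 8. Metastatic replicates 1 to 4 lay above all non-metastatic samples and metastatic replicate 5 among them. The difference was 0.50 ± 0.17 (SE, limma adjusted p = 0.0966), and 0.36 ± 0.19 (SE, adjusted p = 0.322) within batch A. Of its 5 probe sets 4 were positive. Its partner ITGB5, the beta 5 subunit, read 9.99 to 11.56 in metastatic and 10.50 to 11.78 in non-metastatic samples and differed by -0.45 ± 0.26 (SE, adjusted p = 0.296), with 4 of 5 probe sets negative. ITGB3 (0.18), the beta 3 subunit of platelets and angiogenic vessels, and ITGB6 (0.13), which is epithelial, did not pass either. ITGB8, which activates latent TGF-beta with alpha V, differed by 0.61 ± 0.26 (SE, limma adjusted p = 0.177) with both means not above 7.16.

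**Figure D3:**
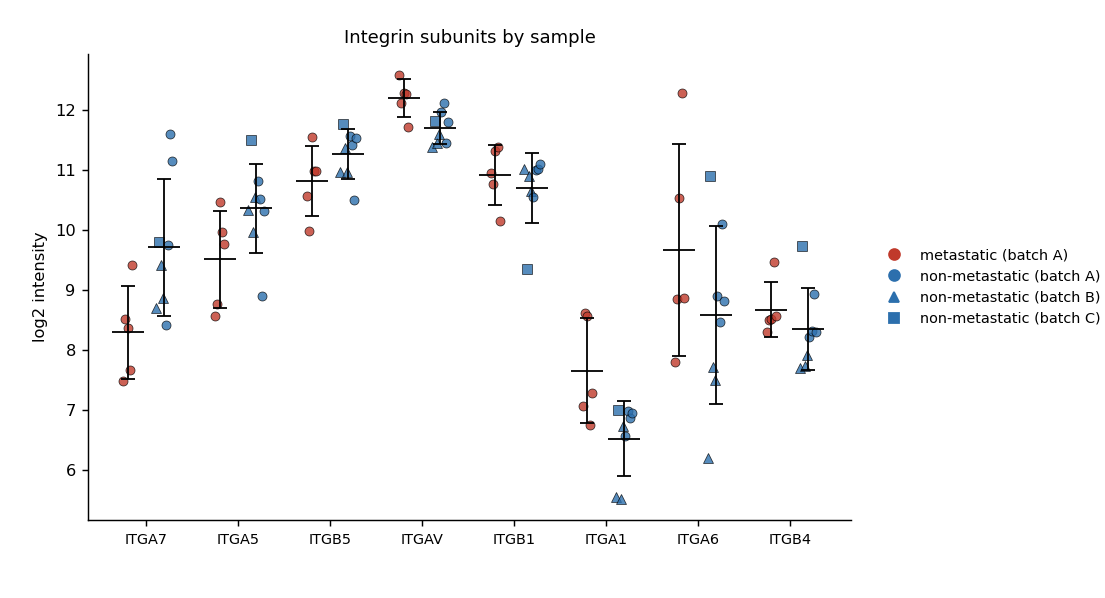
Log2 intensity of 8 integrin subunits at the chosen probe set in every sample, metastatic in red and non-metastatic in blue, with symbols for the labelling batch and bars for mean ± SD. The groups overlap for each of the 8, and ITGA6 spans 7.80 to 12.29 among metastatic samples and 6.21 to 10.91 among non-metastatic samples.

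Among subunits that bind fibronectin, ITGA5, the alpha 5 partner of beta 1, read 8.58, 8.77, 10.48, 9.98 and 9.77 in metastatic samples, against 8.90 to 11.51 with a median of 10.43 in non-metastatic samples. It differed by -0.85 ± 0.40 (SE, limma adjusted p = 0.208), with metastatic replicates 1 and 2 below all others. ITGA4 (-0.07), a receptor subunit for fibronectin and VCAM1, and ITGA8 (0.48), found on mesenchymal cells, did not pass. ITGA9, which binds tenascin C, read 6.49 to 7.09 in metastatic and 6.11 to 6.52 in non-metastatic samples and differed by 0.45 ± 0.13 (SE, limma adjusted p = 0.0718). ITGA9 did not overlap within batch A and passed without non-metastatic replicate 2, but both its means were not above 7.16.

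Among collagen receptors, ITGA1, the alpha 1 subunit that prefers collagen IV, read 7.07, 8.62, 8.58, 6.75 and 7.28 in metastatic samples, against 5.52 to 7.01 with a median of 6.81 in non-metastatic samples. Metastatic replicate 4 alone lay among the non-metastatic samples, and the difference was 1.14 ± 0.38 (SE, limma adjusted p = 0.0938) over all samples and 0.82 ± 0.40 (SE, adjusted p = 0.292) within batch A. ITGA2, the alpha 2 subunit that prefers fibrillar collagen, had the largest positive difference of the members over all samples (1.20 ± 0.64, SE, limma adjusted p = 0.262), with 9.94 in metastatic replicate 4 and 5.79 to 7.54 in the other metastatic samples. Within batch A the ITGA2 difference was 0.72, below those of ITGA1 (0.82) and ITGB8 (0.76), and its 3 probe sets ran from -0.36 to 1.57 over all samples. The non-metastatic means of ITGA1 (6.52) and ITGA2 (6.27) were not above 7.16. Both differences were therefore taken from a level not told apart from no signal. ITGA10 (0.05), of cartilage, and ITGA11 (-0.04), of fibroblasts, did not differ past the threshold. ITGA10, ITGA3, ITGA8 and ITGB3 had both means not above 7.16, as did ITGA9, ITGB8 and LAMC3, 7 members in all.

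Among laminin receptors, ITGA7, the alpha 7 subunit of muscle, had the second most negative difference of the members. It read 7.49, 8.53, 8.37, 7.67 and 9.43 in metastatic samples, against 8.43 to 11.61 with a median of 9.60 in non-metastatic samples, a difference of -1.42 ± 0.52 (SE, limma adjusted p = 0.125) and of -1.94 ± 0.65 (SE, adjusted p = 0.147) within batch A. Non-metastatic replicates 7 and 8, at 11.61 and 11.16, were the highest. Of its 5 probe sets 3 were negative (-1.42, -1.29 and -0.68) and 2 were positive (0.10 and 0.21). ITGA3 (-0.05), the alpha 3 receptor subunit for laminins with alpha 3 and alpha 5 chains, did not pass, and neither did ITGA6 and ITGB4, which form the hemidesmosome integrin.

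ITGA6 varied more within the groups than between them. It read 7.80, 8.86, 10.54, 12.29 and 8.87 in metastatic samples, against 6.21 to 10.91 with a median of 8.66 in non-metastatic samples (difference 1.09 ± 0.80, SE, limma adjusted p = 0.411). Within batch A the ITGA6 difference was 0.59 ± 0.83 (SE), and the non-metastatic mean was 9.08 in batch A and 7.15 in batch B. All 4 of its probe sets were positive over all samples, at 0.77 to 1.09. ITGB4 read 8.30 to 9.47 in metastatic and 7.71 to 9.74 in non-metastatic samples (difference 0.31 ± 0.32, SE, adjusted p = 0.561). The same samples were high in both genes, metastatic replicate 4 (12.29 and 9.47) and non-metastatic replicate 2 (10.91 and 9.74). Over 9 pairs of partner transcripts, picked after the values had been seen, ITGA6 and ITGB4 correlated most closely across the 13 samples (Pearson r = 0.89, permutation p = 4.0e-05, adjusted p = 0.00036; Spearman rho = 0.87, permutation p = 0.00026, adjusted p = 0.00194). Without metastatic replicate 4 and non-metastatic replicate 1, the farthest from the ITGA6 median, r was 0.84, and it was 0.88 within batch A (n = 9) and 0.93 among the 8 non-metastatic samples.

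**Figure D4:**
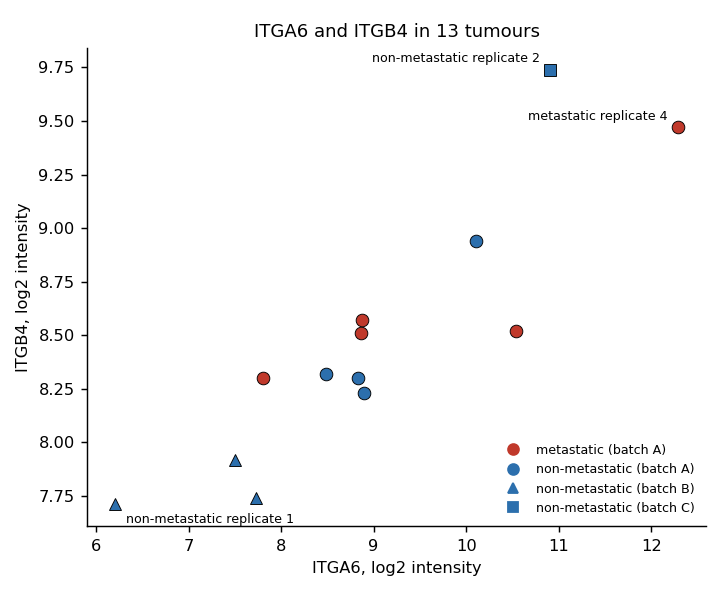
ITGA6 against ITGB4, both as log2 intensity at the chosen probe set, in the 13 tumours, metastatic in red and non-metastatic in blue with symbols for the labelling batch. Samples of batch B lie at the low end of both genes, and metastatic replicate 4 and non-metastatic replicate 2 at the high end (Pearson r = 0.89, and 0.88 within batch A).

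Both nidogens correlated with the gamma 1 chain across the 13 samples. NID2 and LAMC1 had a Pearson r of 0.82 (permutation p = 0.00122, adjusted p = 0.00549) and a Spearman rho of 0.85 (permutation p = 0.00043, adjusted p = 0.00194), and NID1 and LAMC1 an r of 0.76 (permutation p = 0.00228, adjusted p = 0.00684) and a rho of 0.78 (permutation p = 0.00254, adjusted p = 0.00762). Without metastatic replicates 1 and 4 these r values were 0.72 and 0.63, within batch A 0.73 and 0.65, and among the 8 non-metastatic samples 0.88 and 0.78. LAMB1 and LAMC1 had an r of 0.62 that did not pass after adjustment (permutation p = 0.0252, adjusted p = 0.0566; rho = 0.57, adjusted p = 0.101), and LAMB2 and LAMC1 an r of 0.50 (adjusted p = 0.131; rho = 0.47, adjusted p = 0.192). ITGA5 and ITGB1, ITGA7 and ITGB1, and ITGAV and ITGB5 had r of -0.40, -0.15 and -0.09, with permutation p of 0.173 to 0.771. LAMA4 and LAMC1 had an r of 0.50 (adjusted p = 0.122). Within batch A LAMA4, LAMB2 and LAMB1 correlated with LAMC1 at r of 0.77, 0.67 and 0.64, so the nidogens did not stand apart from them there.

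Single tumours carried many of the extreme values. Metastatic replicate 4 was the highest of the 13 samples for 6 of the 31 genes: ITGA2, ITGA3, ITGA6, ITGB1, ITGB8 and LAMA3. Metastatic replicate 1 was the lowest for 7: ITGA5, ITGA7, LAMA4, LAMB1, LAMB2, NID1 and NID2. Non-metastatic replicate 2 was the highest for 7, ITGA5, ITGA11, ITGB4, ITGB5, LAMA1, LAMA5 and LAMB3, and the lowest for ITGB1, ITGB6 and LAMC1. Samples of batch B held the lowest value for 17 genes. The median SD over the 31 genes was 0.46 in metastatic and 0.42 in non-metastatic tumours, and 15 of the 31 had the larger SD in metastatic tumours. The metastatic samples were all in batch A, while the non-metastatic SD also holds differences between batches A, B and C. Whether the tumours of both groups vary alike was therefore not shown.

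**Figure D5:**
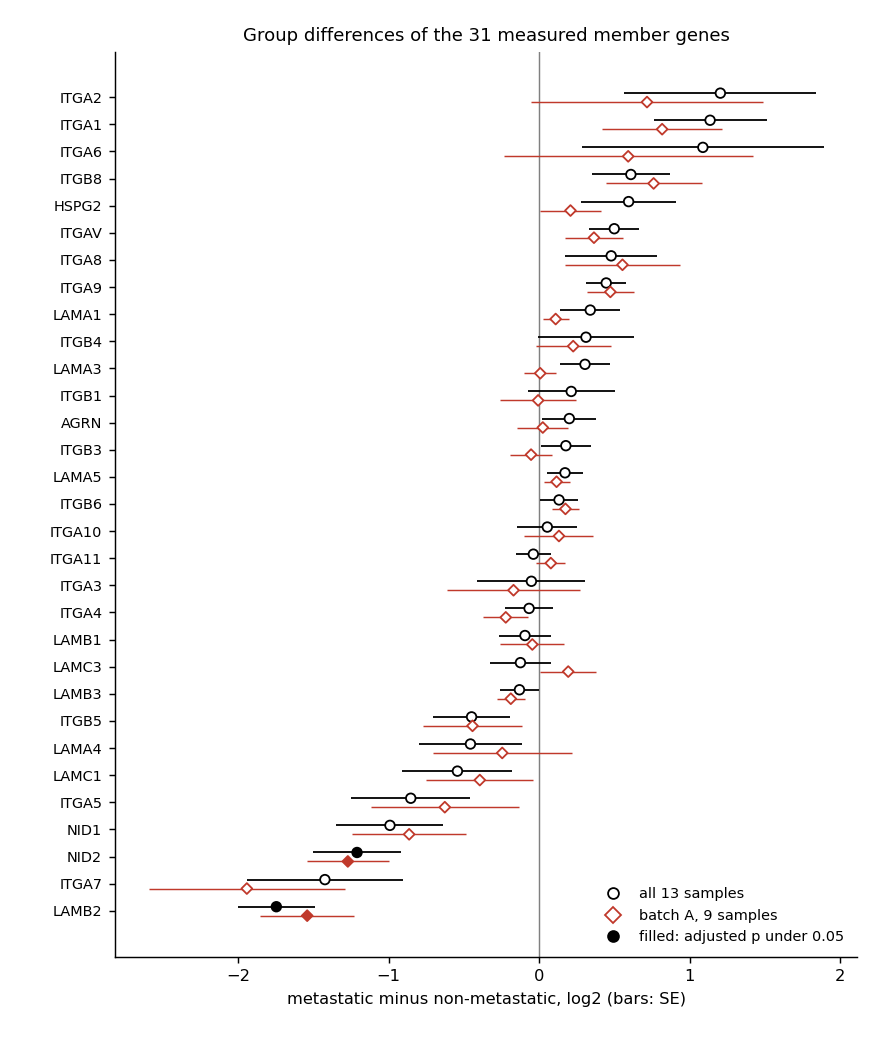
Difference of each of the 31 measured genes, metastatic minus non-metastatic, as log2 with SE bars, over all 13 samples (black circles) and within batch A (red diamonds), with filled symbols where the limma adjusted p was under 0.05. LAMB2 (-1.75) and NID2 (-1.21) are filled in both comparisons, and the differences run up to 1.20 for ITGA2.

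Other genes of the pathway were taken from lists. Of 31 measured adaptors that link integrins to actin or signal from them, 3 rose and 1 fell, with a median difference of 0.04. For comparison with each list, 1.65% of all named genes rose and 3.70% fell over all samples. Within batch A these shares were 0.576% and 2.24%. TLN2, a talin that activates integrins, rose by 0.96 ± 0.24 (SE), LIMS1, the PINCH partner of integrin-linked kinase, by 1.13 ± 0.28 (SE), and ACTN1, an actin crosslinker of focal adhesions, by 1.01 ± 0.25 (SE), with limma adjusted p of 0.0346, 0.0382 and 0.0358. Within batch A ACTN1 passed (0.85, adjusted p = 0.0125), while TLN2 (0.85) and LIMS1 (0.80) did not (adjusted p = 0.174 and 0.193). The calls were lost in 5 (TLN2), 10 (LIMS1) and 9 (ACTN1) of the 13 fits without 1 sample, and 1 of the 4 LIMS1 probe sets passed. Within batch A ACTN1 kept its call in all 9 fits without 1 sample, while TLN2 and LIMS1 passed in 0 of them. Of the 3 ACTN1 probe sets, 2 passed over all samples and 2 within batch A.

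CD151, the tetraspanin that associates with laminin-binding integrins, averaged 10.26 ± 0.51 in the metastatic group and 11.27 ± 0.23 in the non-metastatic group (SD, n = 5 and 8). It fell by 1.01 ± 0.20 (SE, limma adjusted p = 0.0140) and kept its call in all 13 fits without 1 sample, and its other probe set also passed (-0.94). Within batch A CD151 differed by -1.04 without passing (adjusted p = 0.0725). TNS1, a tensin, differed by -0.45 over all samples and passed as lower only within batch A (-0.80, limma adjusted p = 0.0468). That call held in 1 of the 9 fits without 1 sample. Of the 4 TNS1 probe sets, 3 were negative over all samples, and those other than the chosen one ran from -0.26 to 0.37.

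Of 24 measured other basement membrane genes, among them chains of collagen IV, 0 passed over all samples or within batch A by limma. At an unadjusted p under 0.05 there were 8 of 24, against 3616 of 15115 named genes, and the median difference was -0.06. Of 18 measured receptors outside the integrin family, 1 rose, SDC1 (0.57 ± 0.13, SE, limma adjusted p = 0.0256), a syndecan that also passed within batch A (0.69, adjusted p = 0.0332). UTRN, the dystrophin relative that joins dystroglycan to actin, differed by -1.80 (limma adjusted p = 0.0780) and fell by 2.19 within batch A (adjusted p = 0.0232), and another of its 3 probe sets passed over all samples. Of the 3, 2 were negative over all samples, with 0.20 at the remaining one. The UTRN call within batch A held in 5 of the 9 fits without 1 sample. Of 22 interstitial ligands 1 rose, the RGD-containing matrix protein TGFBI (2.60 ± 0.43, SE, limma adjusted p = 0.00596), which also passed within batch A (2.49). The non-metastatic means of SDC1 and TGFBI were not above 7.16. Of 7 leukocyte and platelet integrins 0 passed by limma, with 1 of 7 at an unadjusted p under 0.05.

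Markers of the cell types that make basement membranes were read beside these results, as the log2 of their summed intensity. Of all named genes, 5.35% passed over all samples and 8480 of 15115 had a positive difference. Endothelial markers spanned 11.80 to 12.63 in metastatic and 11.41 to 13.46 in non-metastatic samples, and 0 of 12 passed. Pericyte and smooth muscle markers spanned 12.14 to 13.95 in metastatic and 11.40 to 13.78 in non-metastatic samples, and 0 of 12 passed. Skeletal muscle markers spanned 10.75 to 12.71 in metastatic and 10.11 to 11.95 in non-metastatic samples, and 0 of 11 passed, with 11 of 11 positive. Schwann cell and nerve markers spanned 10.55 to 12.23 in metastatic and 10.60 to 12.42 in non-metastatic samples, and 0 of 10 passed. By limma 0 of 10 macrophage and 0 of 9 lymphocyte markers passed, and 1 of 6 melanocyte markers, MITF, was lower, a call that ended within batch A (adjusted p = 0.0602). Their part in the lower LAMB2 and NID2 values was not tested.

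Epithelial markers spanned 8.90 to 9.25 in metastatic and 8.90 to 9.87 in non-metastatic samples, and 1 of 8, KRT8, was lower. Both KRT8 means were not above 7.16 (1.55 in metastatic and 4.88 in non-metastatic tumours), the KRT8 call ended within batch A (limma adjusted p = 0.0719), and it was lost in 10 of the 13 fits without 1 sample. Metastatic replicate 4 was highest for ITGA6 and ITGA2. Its summed level was 8.96 for epithelial, 11.13 for nerve and 13.13 for smooth muscle markers, each inside the range of the other samples. Its macrophage (14.10) and lymphocyte (10.54) sums were the highest of the 13 samples, with 14.04 and 10.53 in metastatic replicate 3. Of the 8 measured epithelial markers, 7 had both group means not above 7.16. In metastatic replicate 4, EPCAM (4.19) and CDH1 (5.29) from that list were in the range of probe sets without target. The part of the marker sums in the ITGA6 and ITGA2 values of metastatic replicate 4 was not tested. In non-metastatic replicates 7 and 8, which were highest for ITGA7, the summed level was 12.42 and 11.77 for nerve, 9.52 and 9.87 for epithelial and 10.95 and 10.84 for skeletal muscle markers. The nerve sum of replicate 7 and the epithelial sum of replicate 8 were the highest of the 13 samples. Of the mesenchymal markers THY1 (-1.41), DCN (-1.29) and FAP (-1.58) were lower in metastatic tumours, 3 of 11, against 3.70% of all named genes. The other way, 4 of 11 had a positive difference, up to 1.82, and 0 passed as higher. Within batch A DCN alone passed (-1.35, limma adjusted p = 0.0346), and THY1 and FAP did not (adjusted p = 0.133 and 0.174). There 6 of 11 mesenchymal markers were positive, up to 1.83, and their median difference was 0.0055. The summed mesenchymal level was 15.34 to 16.11 in metastatic and 15.71 to 16.42 in non-metastatic samples. The part of these differences in the members' values was not tested.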

How the data were processed

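Total RNA came from untreated tumours, was extracted with a Qiagen RNeasy mini-kit and received a biotin label in a 1-cycle 3′ Affymetrix reaction, per the labels' protocols, and was read on a canine Affymetrix array. The authors deposited processed values, read here as log2 intensities from their range of 0 to 14.33. How they were normalized, and with which software, is not given in the sources used here. Of 43035 probe sets, 111 controls were left out. Names came from the platform annotation (29254 tested probe sets with 1 symbol, 15115 genes), and no symbol changed through the RefSeq table of assembly UU_Cfam_GSD_1.0, whose coordinates are not given because the array annotation carries none. Of the members' 87 probe sets, 43 are of types that can bind several transcripts.

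Groups came from the labels. The groups were compared per probe set in limma 3.58.1 under R 4.3.3 (lmFit, eBayes), with no covariate. Two-sided p-values were adjusted by Benjamini-Hochberg over 42924 probe sets, at a threshold of 0.05. The fit was tested on simulated data. Single values were compared by exact permutation over samples, and correlations by 100000 permutations (Python 3.11.15, numpy 2.4.6, pandas 2.3.3; plots with matplotlib 3.10.9). Labelling batches were inferred from poly-A spike-in controls, not from labels, with cut-offs set here (batch B: 3′ mean under 6, batch C: 3′ minus 5′ over 2). The arrays hold no identical columns. Members, lists and alternatives were chosen with earlier results of these data known. All members were described. Those with a passing probe set over all samples or within batch A, and ITGB1, ITGAV and LAMC1, were given in the most detail. The list genes named are those that passed over all samples or within batch A. The number of arrays limits the precision.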

Additional observations from a re-analysis of the deposited data

Results flagged for a closer look

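Among 62 combinations of a gene and a group, 3 had a single sample far from the rest by Dixon's test at its 95% critical value, which chance gives for about 1 in 20 groups. ITGA10 read 7.30 in metastatic replicate 3, with the nearest other metastatic sample at 6.47. ITGB4 read 9.47 in metastatic replicate 4, with the next at 8.57, and the same sample was highest for ITGA6. ITGB1 read 9.35 in non-metastatic replicate 2, with the nearest other non-metastatic sample at 10.56. In that sample the 3′ minus 5′ value was 3.90 for spike-in controls, against at most 0.87 elsewhere, and 3.14 for ACTB, the highest of the 13 samples; their part in the ITGB1 value was not tested.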

How the results depend on the processing

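LAMB2 kept its direction in all alternatives and its call in all but 7 of them, all within batch A: 6 fits without 1 sample and the fit with ACTB 3′ minus 5′ intensity as a covariate (-1.54, limma adjusted p = 0.0675). The count of passing members, 2, was 1 without batch B, with the ACTB covariate, with the mean of all probe sets of a gene and with the replicate block; the gene lost each time was NID2 (differences -1.02, -1.04, -0.94 and -1.24, adjusted p 0.0508 to 0.183). Within batch A with the ACTB covariate 0 members, 0 member probe sets, 2 list genes and 842 probe sets passed. The 6 passing member probe sets became 3 without batch B. The 6 passing list genes became 0 without batch B and 0 with the replicate block. All passing probe sets, 2104, numbered 1192 within batch A, 207 without batch B, 1367 with the ACTB covariate and 733 with the replicate block. Leaving out 1 sample gave 1 to 4 members, 4 to 13 member probe sets, 2 to 14 list genes and 856 to 4478 probe sets over all samples, the highest each without non-metastatic replicate 2. Leaving out 1 sample within batch A gave 0 to 2 members, 0 to 3 member probe sets, 1 to 5 list genes and 259 to 1207 probe sets. These last fits, the ACTB covariate within batch A, the alternatives for list genes and those for the LAMB2 and NID2 pairs were chosen after seeing the data.

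Differences near 0 changed sign. ITGB1 was -0.0065 within batch A and with the batch as a block, and -0.13 to 0.41 over all fits without 1 sample. LAMB1 was 0.10 with quantile normalization and 0.10 with the mean of its probe sets, and -0.16 to 0.12 over all fits without 1 sample, over which LAMA3 ran from -0.06 to 0.36. These sign changes without 1 sample occurred within batch A only. The cause was not tested. Replicate numbers 1 to 5 occur in both groups, but samples with the same number did not deviate together (correlations -0.02 to 0.05, and 1 of 5 metastatic samples was closest to its own number), so they share only a number.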
